A study of Ganoderma lucidum with 6 samples.

Results

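Sugar transporters and related facilitators were taken from the gene table of Ganoderma lucidum, a wood-decaying basidiomycete, by their annotation. A gene was included if it carried the GO identifier for a sugar proton symporter. It was also included if its KOG description named a predicted transporter of the major facilitator superfamily, a sugar transporter or a glucose transporter. Inorganic phosphate transporters were to be left out, and 0 rows had to be. The rule gave 35 of 16113 genes, of which 22 carried the GO identifier, 32 had such a KOG description and 19 had both. By description, 25 were predicted major facilitator transporters (KOG0254), 3 were of the sugar transporter/spinster type (KOG1330), and 2 were predicted sugar transporters of KOG4686. A further 1 was a predicted sugar transporter of KOG4332, 3 were carriers of nucleotide sugars, and 1, GL31367-G, had no description.

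Major facilitator transporters are single-chain membrane proteins that move small solutes by alternating between an outward-open and an inward-open state. Those of the sugar porter family carry hexoses, pentoses, disaccharides or sugar alcohols across the plasma membrane, either down a gradient or together with protons. Wood-decaying fungi hold many such genes and take up the sugars that their secreted enzymes release from cellulose and hemicellulose. Nucleotide-sugar carriers work inside the cell and bring activated sugars into the Golgi, where glycans are built.

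RNA sequencing compared wild-type mycelia given sodium nitrate (NaNO3, 3 libraries) with wild-type mycelia given ammonium sulfate ((NH4)2SO4, 3 libraries), all at day 3. Besides the nitrogen source, the salts differ in their counter-ions, so effects of nitrogen, sulfate and sodium cannot be told apart. The series title names silencing of the transcription factor AreA, and no library used here is labelled as silenced. Whether replicates are separate cultures is not stated in the labels. The p-values therefore reflect library-to-library spread alone, which may be technical. In bulk mycelium, fewer cells of a kind and less transcript per cell cannot be told apart.

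Total gene counts ran between 19979528 and 24767602 in nitrate libraries and between 24059697 and 27604895 in ammonium libraries. Mean correlations of a library with the other libraries of its group were 0.971 to 0.982 on the log scale, lowest for nitrate replicate 1 and ammonium replicate 1. All 22 marker genes of hyphal growth (chitin synthase, glucan synthase and tubulin words) had counts in every library. Summed, they reached 2142 to 3034 FPKM in nitrate and 2020 to 2615 FPKM in ammonium. The 4 genes with meiosis words, which mark spore-forming tissue, summed to 12.0 to 24.6 FPKM in nitrate and 23.2 to 37.2 FPKM in ammonium. All 4 had log2 fold changes of nitrate over ammonium below 0 (edgeR). The median was -0.71 for these 4 and -0.07 for the 22 hyphal genes. At an edgeR adjusted p under 0.05, 1 of the 4 was called lower, and of the 22 hyphal genes 1 was called higher and 2 lower. The share called over all tested genes was 15.6%. Levels below are FPKM as the authors deposited them, per gene length, so they can be set side by side between genes.

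On nitrate, GL22351-G, GL23534-G and GL20600-G, all predicted major facilitator transporters, were higher than on ammonium. The predicted sugar transporters GL21351-G and GL30249-G and the major facilitator transporter GL26008-G were lower. These were the 6 genes called among 34 tested, 3 in each direction, at a Benjamini-Hochberg adjusted p under 0.05 (edgeR quasi-likelihood test over all tested genes). Of all tested genes 15.6% were called, 7.5% higher and 8.13% lower, so the 17.65% of the transporters is near the background. DESeq2 called 9 of them, 5 higher and 4 lower, and 21.5% of all genes it gave an adjusted p. By edgeR, fold changes were above 0 in 20 and below 0 in 14 of the 34, and their median log2 value was 0.05, against 0.01 over all tested genes. GL31367-G was the gene not tested, with 5 to 17 counts in each library.

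**Figure D1:**
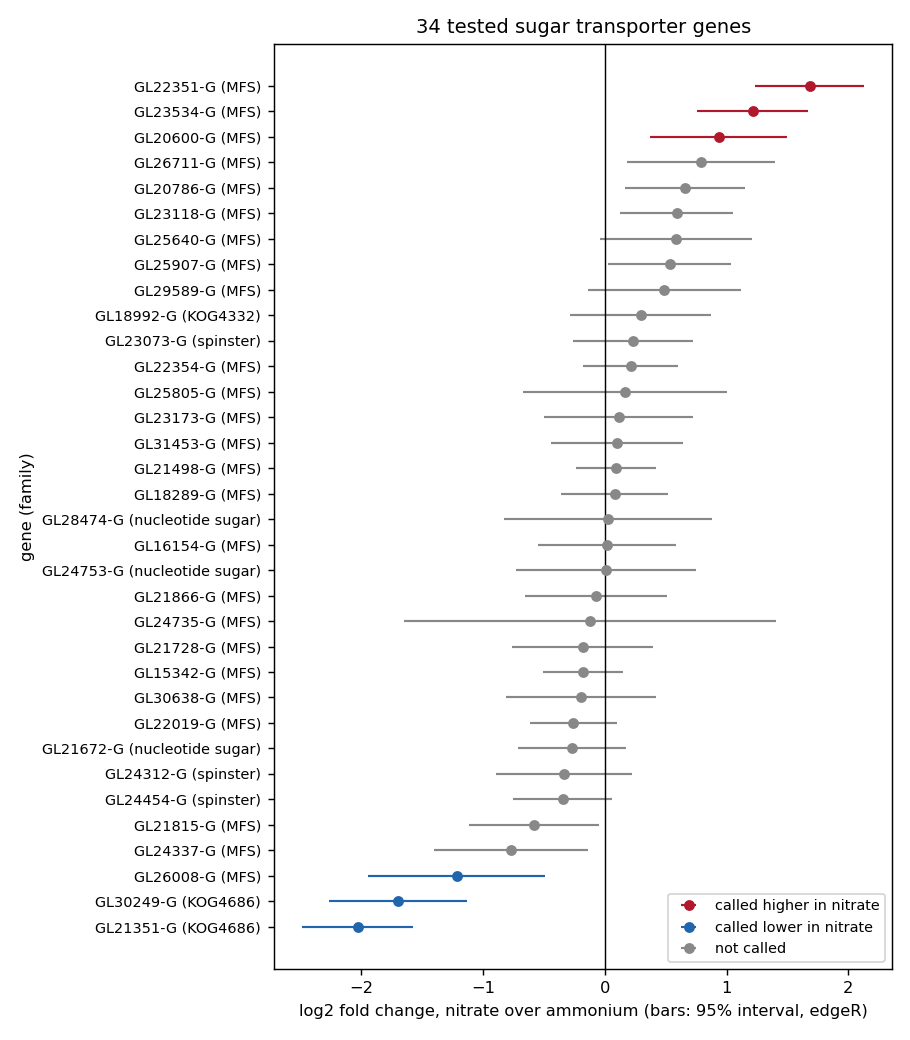
Log2 fold change of nitrate over ammonium for the 34 tested sugar transporter genes (horizontal axis), ordered by value, with 95% intervals from edgeR that are not adjusted for the number of genes. The 3 genes called higher (red) reach 1.68 and the 3 called lower (blue) reach -2.03, while the other 28 (grey) lie between -0.77 and 0.79.

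Both genes of KOG4686, whose description names no particular sugar and whose GO identifiers name no substrate, were lower on nitrate. GL21351-G lies on scaffold 14 at 473927 to 476247, on the plus strand. Its level was 20.2, 30.3 and 24.3 FPKM in nitrate replicates 1 to 3, against 93.7, 90.0 and 118 FPKM in ammonium replicates 1 to 3. All 3 nitrate libraries lay far below the lowest ammonium library, and the means were 24.9 ± 5.07 FPKM in nitrate and 101 ± 15.5 FPKM in ammonium (SD, n = 3 each). The log2 fold change was -2.03 ± 0.20 (SE, adjusted p = 0.00103, edgeR), which puts ammonium 4.08-fold above nitrate. It was the largest difference and the smallest adjusted p of the 34 genes.

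GL30249-G, the second gene of KOG4686, lies on scaffold 1 at 2143925 to 2146331, on the minus strand. It had 2.39, 4.26 and 3.90 FPKM in nitrate, against 12.4, 8.55 and 13.0 FPKM in ammonium. Again no nitrate library reached the lowest ammonium library. Its log2 fold change was -1.70 ± 0.25 (SE, adjusted p = 0.00479, edgeR). The 95% intervals of both genes overlapped, at -2.49 to -1.57 for GL21351-G and -2.27 to -1.13 for GL30249-G, although their levels differed widely. Ammonium means were 101 ± 15.5 FPKM for GL21351-G and 11.3 ± 2.40 FPKM for GL30249-G.

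GL22351-G had the highest log2 fold change of the 34 transporters. It carries the GO identifiers for sugar proton symport and for glucose import, and lies on scaffold 2 at 1314773 to 1317015. Its level was 208, 184 and 171 FPKM in nitrate libraries, against 56.6, 52.1 and 66.5 FPKM in ammonium libraries. The lowest nitrate library stood well above the highest ammonium library. The log2 fold change was 1.68 ± 0.20 (SE, adjusted p = 0.00212, edgeR), a 3.21-fold higher level on nitrate.

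GL23534-G carries the same glucose identifiers and, besides, that for quinate metabolism. Quinate is a plant-derived acid that some fungi use as a carbon source, and in Aspergillus and Neurospora its permease belongs to the sugar porter family. The gene lies on scaffold 28 at 480097 to 482796. It had 204, 186 and 232 FPKM in nitrate, against 108, 87.5 and 71.9 FPKM in ammonium, and the groups did not overlap. The log2 fold change was 1.21 ± 0.20 (SE, adjusted p = 0.00761, edgeR). The other gene with the quinate identifier, GL22019-G, had 11.1 ± 0.78 FPKM in nitrate and 13.3 ± 0.42 FPKM in ammonium (adjusted p = 0.295, edgeR).

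The 2 remaining calls were nearer to the threshold. GL20600-G, with identifiers for symport and carbohydrate transport but not for glucose, had 8.06, 6.69 and 9.34 FPKM in nitrate, against 3.08, 4.87 and 4.48 FPKM in ammonium. Its log2 fold change was 0.93 ± 0.24 (SE, adjusted p = 0.0385, edgeR). GL26008-G, with the glucose identifiers, had 10.8, 24.3 and 13.1 FPKM in nitrate, against 42.2, 25.5 and 43.4 FPKM in ammonium. Nitrate replicate 2 and ammonium replicate 2 were close to each other in this gene, and the other libraries stood far apart. Its log2 fold change was -1.22 ± 0.32 (SE, adjusted p = 0.0379, edgeR). GL20600-G lost its call whichever library was left out (adjusted p = 0.0557 to 0.129, edgeR). GL26008-G passed only without nitrate replicate 2 (adjusted p = 0.0159, and 0.0522 to 0.134 in the 5 others), and limma on log2(FPKM + 1) gave an adjusted p of 0.0515.

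**Figure D2:**
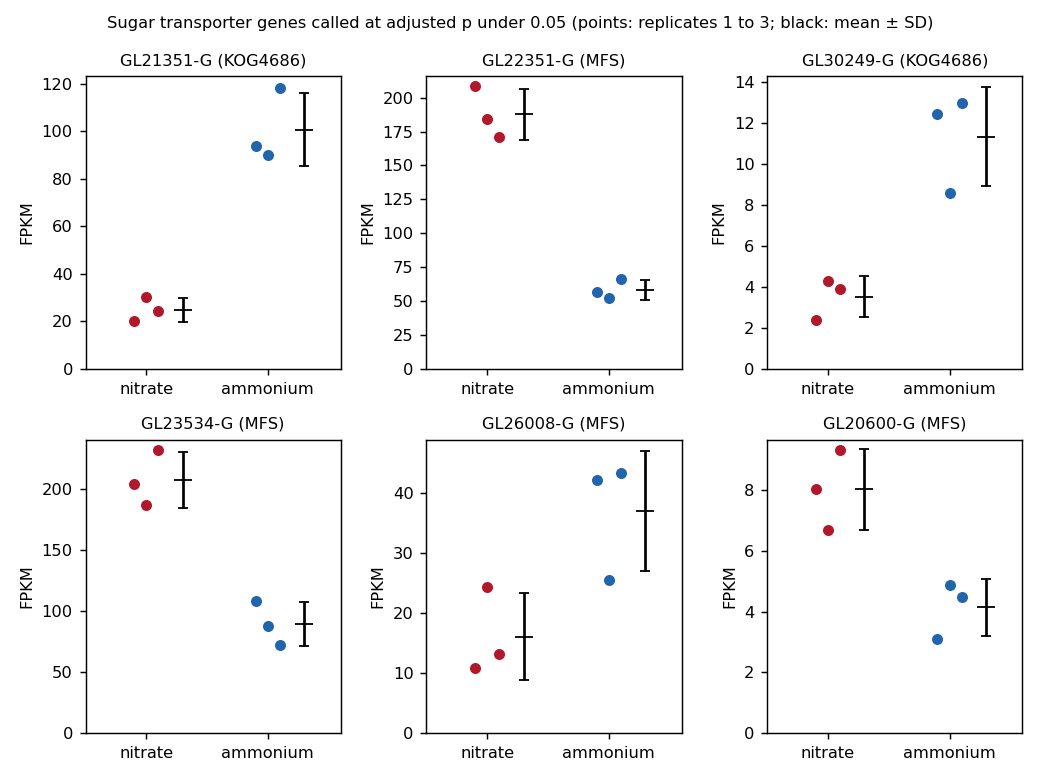
FPKM (vertical axes, from 0) of the 6 sugar transporter genes called between nitrate (red, left) and ammonium (blue, right), with replicates 1 to 3 as points and mean ± SD in black. In each gene the groups do not overlap, with the smallest gap in GL26008-G, where nitrate replicate 2 had 24.3 FPKM and ammonium replicate 2 had 25.5 FPKM.

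A few genes made up most of the transporter transcripts. The 6 genes of highest mean level were GL24337-G, GL21866-G, GL21815-G, GL23534-G, GL26711-G and GL22351-G, all predicted major facilitator transporters with the sugar proton symporter identifier. Together they held 76.5 to 77.3% of the summed FPKM of the 35 genes in nitrate libraries and 72.4 to 74.4% in ammonium libraries. The sum itself was 1934 ± 203 FPKM in nitrate and 2073 ± 296 FPKM in ammonium (SD, n = 3 each), with overlapping ranges of 1757 to 2156 and 1786 to 2376 FPKM. The 2 raised genes of this group took up more of the sum on nitrate. GL22351-G held 9.66 to 9.73% in nitrate libraries and 2.53 to 3.17% in ammonium libraries. GL23534-G held 9.44 to 13.2% in nitrate and 3.03 to 6.04% in ammonium. These shares come from the same values as the calls above.

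GL24337-G was the most abundant transporter in each ammonium library and in nitrate replicate 2. It had 282, 388 and 236 FPKM in nitrate, against 394, 483 and 652 FPKM in ammonium. The nitrate libraries lay below the ammonium libraries by a narrow margin, 388 FPKM in the highest nitrate and 394 FPKM in the lowest ammonium library. The difference did not pass (log2 fold change -0.77, 95% interval -1.40 to -0.14, adjusted p = 0.0984, edgeR), whereas DESeq2 (adjusted p = 0.0376) and the fit lacking ammonium replicate 1 (adjusted p = 0.0476) called it. That was the only call of GL24337-G in the 6 fits lacking 1 library (highest adjusted p = 0.29, edgeR).

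GL21866-G led in nitrate replicates 1 and 3. It had 431, 321 and 286 FPKM in nitrate, against 300, 400 and 389 FPKM in ammonium, so the groups overlapped throughout. Its log2 fold change was -0.07 with a 95% interval of -0.66 to 0.51 (edgeR), which does not show that the level was equal. GL21815-G, which lies on the same scaffold 17, had 325, 241 and 258 FPKM in nitrate, against 353, 392 and 486 FPKM in ammonium. Here each nitrate library was below each ammonium library, and the gene did not pass (adjusted p = 0.128, edgeR, and 0.0475 without nitrate replicate 1). Of the 6 fits lacking 1 library, only that 1 called GL21815-G (highest adjusted p = 0.329, edgeR). GL26711-G had 218, 133 and 161 FPKM in nitrate, against 81.3, 111 and 103 FPKM in ammonium. In this gene the nitrate libraries were the higher ones, and it did not pass either (adjusted p = 0.0816 by edgeR, 0.032 by DESeq2).

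**Figure D3:**
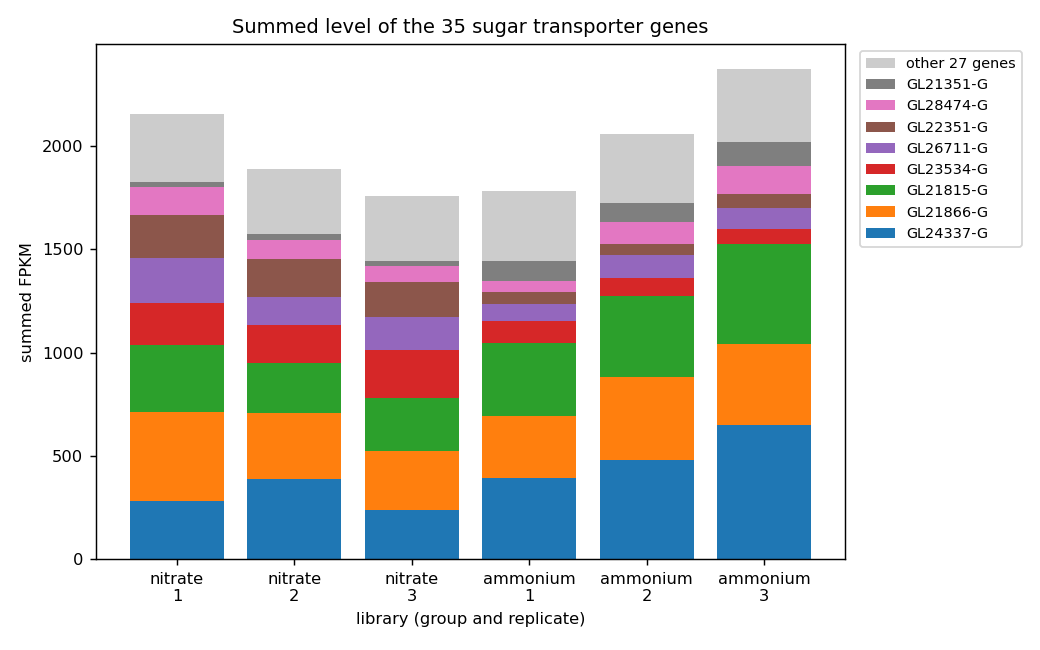
Summed FPKM of the 35 sugar transporter genes in each library (stacked bars, from 0; nitrate libraries left, ammonium libraries right), split into the 8 genes of highest mean level and the rest. The totals overlap between groups, while the bands of GL22351-G (brown) and GL23534-G (red) are thicker in nitrate and that of GL21351-G (dark grey) is thicker in ammonium.

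Of the 19 tested genes with the identifier for glucose transport, 2 were higher, 1 was lower and 16 did not pass. Of all tested genes 15.6% were called, so this count does not set the glucose genes apart. GL23118-G, the only gene with the identifier for high-affinity glucose proton symport, had 10.56, 14.5 and 18.9 FPKM in nitrate, against 10.65, 8.93 and 9.28 FPKM in ammonium. Nitrate replicates 2 and 3 lay above all ammonium libraries and nitrate replicate 1 did not (adjusted p = 0.0886, edgeR, and 0.0356 without nitrate replicate 1). Of the 6 fits lacking 1 library, only that 1 called GL23118-G (highest adjusted p = 0.287, edgeR). GL25640-G carries identifiers for many substrates, among them galactose, xylose, ribose, mannitol, sorbitol and glycerol. Its level was 17.1, 10.2 and 9.93 FPKM in nitrate, against 7.81, 7.78 and 9.29 FPKM in ammonium, without overlap and with an adjusted p of 0.179 (edgeR). Its log2 fold change was 0.59. A separate identifier, for glycerol transport as a process, was carried by 4 other genes, GL30638-G, GL23173-G, GL16154-G and GL31453-G. These 4 had log2 fold changes between -0.20 and 0.11, and 0 of them passed (0 as well at an unadjusted p under 0.05 and with DESeq2). A fit without replicate 1 of both groups, added after seeing the data, called 40.6% of all tested genes. In it GL30638-G was called lower (log2 fold change -0.64, adjusted p = 0.00655) and GL23173-G higher (0.54, adjusted p = 0.0436, edgeR).

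GL18289-G and GL20786-G are the only transporters of the set within 10 kb of each other, on scaffold 11 with 5521 bases between them and on the same strand. Both carry identifiers for symport and carbohydrate transport. GL20786-G had 13.4, 11.6 and 9.74 FPKM in nitrate, against 6.36, 7.25 and 8.31 FPKM in ammonium. GL18289-G had 7.76, 6.40 and 7.65 FPKM in nitrate, against 6.43, 7.40 and 6.65 FPKM in ammonium. The groups did not overlap in GL20786-G (adjusted p = 0.0742 by edgeR, 0.0451 by DESeq2) and overlapped in GL18289-G (adjusted p = 0.814, edgeR). Whether their fold changes differ from each other was not tested.

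Carriers of nucleotide sugars showed no call with all 6 libraries. The UDP-galactose transporters GL28474-G and GL24753-G bring the donor for galactose-containing glycans into the Golgi. GL28474-G had 138, 92.2 and 78.0 FPKM in nitrate, against 57.7, 108 and 136 FPKM in ammonium. GL24753-G had 31.4, 18.4 and 18.5 FPKM in nitrate, against 15.8, 23.9 and 28.3 FPKM in ammonium. In both genes replicate 1 was the highest of the nitrate libraries and the lowest of the ammonium libraries, and the spread within each group exceeded the difference between them. Log2 fold changes were 0.03 (95% interval -0.83 to 0.88) for GL28474-G and 0.01 (-0.73 to 0.75) for GL24753-G. Without replicate 1 of both groups, a fit added after seeing the data, both turned sign and were called lower on nitrate, at log2 fold changes of -0.61 (adjusted p = 0.0122) and -0.59 (adjusted p = 0.0113, edgeR). The same fit called 6 of the transporters higher and 10 lower, and 40.6% of all tested genes. The carrier of the VRG4/SQV-7 type, GL21672-G, in yeast the carrier of GDP-mannose, had 33.2 ± 5.26 FPKM in nitrate and 39.8 ± 10.1 FPKM in ammonium (SD, n = 3 each, adjusted p = 0.383, edgeR).

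The remaining descriptions gave no call either. Of the spinster-type genes, GL24312-G and GL23073-G carry identifiers for ammonium transport as well. GL24312-G had 18.4, 13.7 and 11.3 FPKM in nitrate, against 15.9, 20.0 and 18.9 FPKM in ammonium (adjusted p = 0.381, edgeR). GL23073-G had 6.22 ± 0.40 FPKM in nitrate and 5.28 ± 1.06 FPKM in ammonium (SD, n = 3 each). The third, GL24454-G, had 7.78, 6.66 and 8.45 FPKM in nitrate, against 11.1, 9.30 and 8.68 FPKM in ammonium, just without overlap (adjusted p = 0.216, edgeR). GL18992-G, of KOG4332, carries the identifier for molybdate transport, and molybdate is the source of the cofactor of nitrate reductase. It had 12.6, 9.38 and 10.0 FPKM in nitrate, against 6.58, 10.5 and 8.86 FPKM in ammonium, which overlap (log2 fold change 0.29, 95% interval -0.28 to 0.87, edgeR).

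Among the 14 tested genes whose groups did not overlap, 7 were higher and 7 lower on nitrate. That is 41.2% of the 34, against 37.0% of all tested genes, of which 19.1% were higher and 17.9% lower. The 28 uncalled genes held 8 of these 14. Within groups, some orders of the libraries were shared by several genes. Nitrate replicate 1 was the highest nitrate library and ammonium replicate 1 the lowest ammonium library in 11 of the 34 genes (32.4%, against 21.6% of all tested genes). The opposite order, nitrate replicate 1 lowest and ammonium replicate 1 highest, was seen in 8 (23.5%, against 37.8% of all tested genes). GL24735-G had the widest spread of this kind, with 23.1, 6.24 and 4.32 FPKM in nitrate, against 6.07, 16.5 and 14.6 FPKM in ammonium (95% interval of the log2 fold change -1.65 to 1.41). Their part in the calls was not tested.

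**Figure D4:**
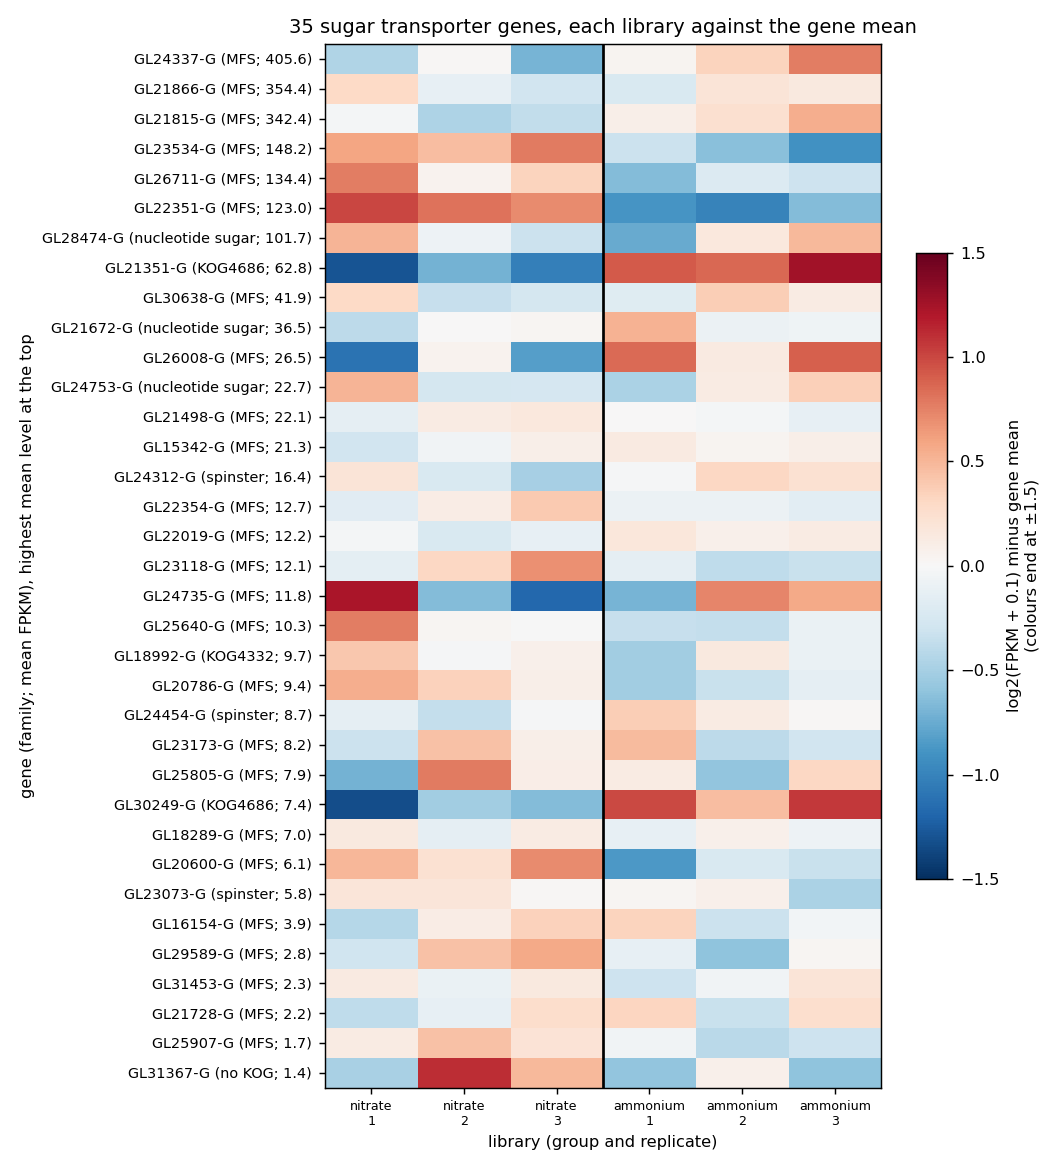
Level of each of the 35 sugar transporter genes (rows, highest mean FPKM at the top) in each library (columns, nitrate left, ammonium right), as log2(FPKM + 0.1) minus the gene's mean over the 6 libraries. GL22351-G and GL23534-G are red in nitrate and blue in ammonium, GL21351-G and GL30249-G the opposite, and GL24735-G and GL28474-G are mixed within both groups.

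Leaving out each library in turn kept 4 of the 6 calls in all 6 fits. They were GL21351-G (adjusted p = 0.00143 to 0.0082), GL22351-G (0.00195 to 0.0172), GL30249-G (0.00604 to 0.0275) and GL23534-G (0.00951 to 0.0399, edgeR). Without replicate 1 of both groups, 6 genes were called higher and 10 lower, while the share of all tested genes called reached 40.6%. Both left-out libraries stand at opposite ends of the order above, so that fit takes out spread within groups and its p-values can be too small.

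**Figure D5:**
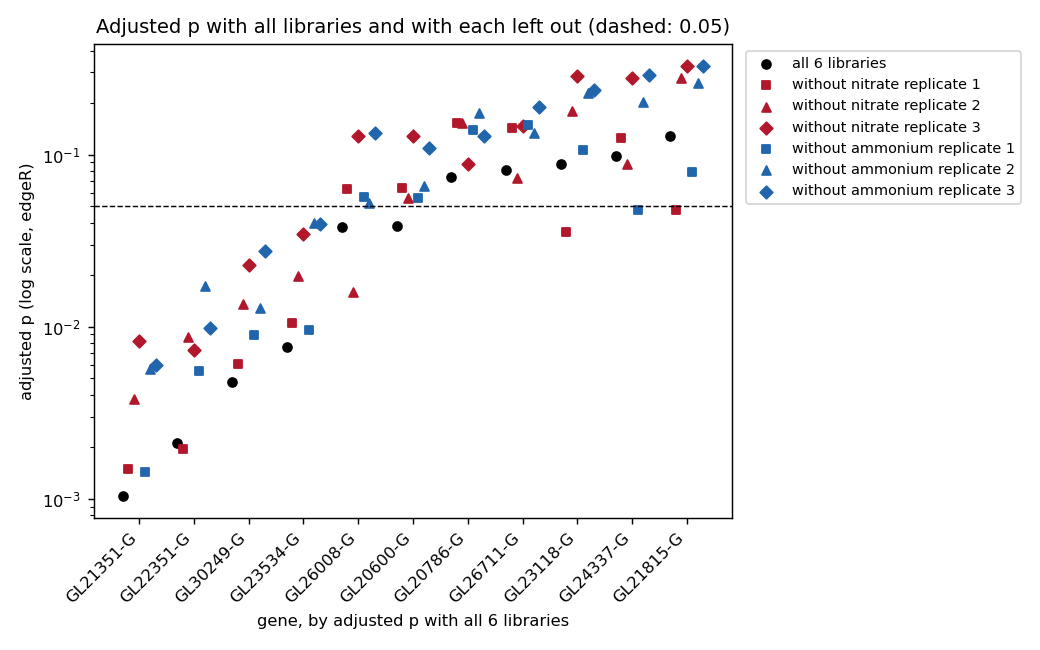
Adjusted p (vertical axis, log scale, edgeR) of the 6 called sugar transporter genes and the 5 uncalled ones of smallest adjusted p, with all 6 libraries (black) and with each nitrate (red) or ammonium (blue) library left out. GL21351-G, GL22351-G, GL30249-G and GL23534-G stay under the dashed line at 0.05 in each fit, and the other 7 cross it or stay above it.

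Around the transporters, 45 further genes of sugar use were taken by words in their KOG descriptions, 43 of them tested. The descriptions are broad, and the GO identifiers of some of these genes name another function. These were 1 higher, 4 lower and 38 not passing, or 11.63% called against the 15.6% of all tested genes. Their median log2 fold change was -0.18. GL22360-G, described as a sorbitol dehydrogenase but with the GO identifier for an NADP-dependent alcohol dehydrogenase and none for sorbitol, had 6.85, 7.80 and 9.68 FPKM in nitrate, against 31.8, 29.1 and 36.9 FPKM in ammonium (log2 fold change -2.02 ± 0.18, SE, adjusted p = 0.000662, edgeR). Of the 9 tested genes with this description it was the 1 called, and of the 8 others 3 had log2 fold changes above 0. The gene among them with the sorbitol identifiers, GL18988-G, had a log2 fold change of -0.86 and was not called (adjusted p = 0.304, edgeR). The neutral trehalase GL24361-G, which splits the storage sugar trehalose into glucose, had 21.4, 16.5 and 16.2 FPKM in nitrate, against 63.7, 62.5 and 68.2 FPKM in ammonium (log2 fold change -1.84 ± 0.20, SE, adjusted p = 0.00141). In neither GL22360-G nor GL24361-G did the groups come near each other, and both stayed called without any 1 library. Galactokinase, GL17052-G, which phosphorylates galactose after uptake, had 6.20, 10.2 and 6.36 FPKM in nitrate, against 20.1, 15.2 and 21.5 FPKM in ammonium (adjusted p = 0.00995, edgeR).

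The gene called higher was GL22527-G, described as of the trehalose-6-phosphate synthase family, which makes the precursor of trehalose. It also carries the identifier for trehalose-phosphatase, which turns that precursor into trehalose. It had 21.5, 33.0 and 26.5 FPKM in nitrate, against 12.8, 13.6 and 17.6 FPKM in ammonium (adjusted p = 0.028, edgeR), and of the 6 fits lacking a library only that lacking nitrate replicate 1 kept it (highest adjusted p = 0.101). The 2 other genes of this description had log2 fold changes of -0.23 and 0.20 and were not called. The second neutral trehalase with the trehalase identifier, GL26035-G, had a log2 fold change of -0.79 and was not called (adjusted p = 0.0558, edgeR). GL20962-G and GL21601-G, described as putative trehalases, carry the identifier for carnosine N-methyltransferase instead, and were not called either. The 2 hexokinases, which trap glucose after entry, had log2 fold changes of -0.35 and -0.28 and were not called, nor were the 6 genes described as alpha-amylases, 3 as beta-glucosidases and 5 as maltases. Of the 6, GL24554-G also carries identifiers for alpha-1,3-glucan synthase and cell wall glucan synthesis. The fourth gene called lower, GL22810-G, chosen after its values were seen, is described as a glucose-repressible or related protein, while its GO identifiers are those of the NatC acetyltransferase complex and a transferase. It had 6.18 ± 0.48 FPKM in nitrate and 11.1 ± 2.39 FPKM in ammonium (SD, n = 3 each, adjusted p = 0.0387, edgeR). Its call was lost in 4 of the 6 fits lacking a library.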

How the data were processed

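Wild-type mycelia were sequenced on the Illumina platform after mRNA isolation, per the labels' protocols. The authors deposited 1 table of genes with raw read counts, TPM and FPKM per library, per the file headers. The authors' TPM were not used. How reads were aligned and counted, which annotation and strand setting were used, and how reads shared by similar transporters were treated is not given in the sources used here. No transporter overlapped another gene model. Tests used counts in edgeR (version 4.0.16, under R 4.3.3). The filterByExpr filter left 11993 genes, scaled by TMM and fitted by robust quasi-likelihood over all 6 libraries without a block. Standard errors were derived from the F statistic, with 4 residual degrees of freedom. Positive fold changes mean higher in nitrate.

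Named genes were GL21351-G, GL30249-G, each called transporter, the 6 most abundant, pairs within 10 kb and the leading called genes of sugar use; others were named for their annotation or after their values were seen. The genes and lists were chosen with earlier results of these data known. GO identifiers come without names in the table, so the names are general knowledge. Alternatives were RLE factors, other filters, DESeq2 1.42.0, limma 3.58.1 on log2(FPKM + 1) and log2(FPKM + 0.1), the replicate number as a block, and libraries left out. Counts were simulated over 11993 genes, of which 200 were changed. Calls were made for 32% of the genes set to a 2-fold change and for 93% at 4-fold. Among genes left unchanged, 3 were called. In the data 1874 genes were called, and library orders shared by many genes were not simulated. The simulated shares need not hold for these data.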

Additional observations from a re-analysis of the deposited data

How the results depend on the processing

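GL21351-G and GL22351-G stayed called under each alternative run, and direction held for all 6 called transporters. The RLE factors and the other count filters left 3 transporters called higher and 3 lower, and limma left 3 and 2, without GL26008-G (adjusted p = 0.0515 to 0.0655). DESeq2 called 5 transporters higher, and 4 genes of sugar use higher and 7 lower. The filter at 50 counts called 2 genes of sugar use higher. Calls of at least 2-fold numbered 2 higher and 3 lower among transporters, 0 higher among genes of sugar use, and 532 and 564 among all genes. Without 1 library, 2 to 3 transporters were called higher and 2 to 3 lower, 0 to 1 and 3 to 5 genes of sugar use, and 273 to 910 and 382 to 1036 of all genes. Without replicate 1 of both groups, 6 transporters were called higher and 10 lower, and 2364 and 2534 of all genes.

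Whether same-numbered libraries shared a batch is not stated in the labels. Their deviations from the group means correlated at -0.66, -0.35 and -0.46. Differently numbered libraries of the 2 groups correlated at -0.43 to 0.64. With 3 libraries per group these values cannot settle whether the libraries were paired. With the replicate block, 1 transporter was called higher and 1 lower, 0 and 2 genes of sugar use, and 85 and 140 of all genes. GL30249-G, GL23534-G, GL26008-G and GL20600-G were not called with the block (adjusted p = 0.0537, 0.0873, 0.156 and 0.167), and GL24753-G had a log2 fold change of -0.023.

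Uncalled transporters near 0 changed sign when 1 library was left out. Their log2 fold changes then ran from -0.36 to 0.18 for GL24753-G, -0.31 to 0.29 for GL28474-G, -1.30 to 0.28 for GL24735-G, -0.32 to 0.074 for GL21866-G, -0.066 to 0.22 for GL31453-G, -0.26 to 0.44 for GL25805-G, -0.021 to 0.17 for GL18289-G, -0.092 to 0.39 for GL23173-G and -0.14 to 0.18 for GL16154-G. Without replicate 1 of both groups, signs turned in GL21728-G (0.014), GL31453-G (-0.14), GL21672-G (0.0086), GL18992-G (-0.084), GL24753-G (-0.59), GL18289-G (-0.091) and GL28474-G (-0.61). Of these, GL24753-G and GL28474-G were called lower in that fit (adjusted p = 0.0113 and 0.0122). Without a change of sign, GL26008-G lost its call there (log2 fold change -0.96, adjusted p = 0.13, edgeR). GL24735-G was called lower in the same fit (log2 fold change -1.635, adjusted p = 0.000236, edgeR). The cause of these changes was not tested.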

Other observations

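Of the 12 gene models next to the 6 called transporters on their scaffolds, 1 was called higher, 1 lower, 9 were not called and 1 was not tested, and the share called over all tested genes was 15.6%. Beside GL22351-G, the undescribed GL27516-G, with 3749 bases between them, had 33.6 ± 2.94 FPKM in nitrate and 17.1 ± 3.46 FPKM in ammonium (SD, n = 3 each, adjusted p = 0.0272, edgeR), the direction of the transporter. Beside GL20600-G, the undescribed GL15062-G, with 502 bases between them, had 1.27 ± 0.34 FPKM in nitrate and 4.00 ± 0.74 FPKM in ammonium (adjusted p = 0.0109, edgeR), the opposite direction. The other neighbour of GL20600-G, the major facilitator permease GL20487-G, had 7.58 ± 1.18 FPKM in nitrate and 8.80 ± 1.75 FPKM in ammonium and was not called (adjusted p = 0.417, edgeR). These neighbours were chosen after their values were seen.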
